A study of Mus musculus with 6 samples.

Results

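Genes of the integrated stress response were followed in mouse immature dendritic cells (imDCs) with and without fluid shear stress (FSS). They were Atf4, Atf3, Ddit3, Ddit4, Trib3, Chac1, Sesn2, Ppp1r15a, Nupr1 and Gdf15, 10 (the members) of the 22899 genes in the deposited table, and all 10 were found there by symbol. They had been picked for their known roles and with the difference between FSS and static cells already in view, so that difference is given here as a description, without p-values, and the calls counted further on support nothing about the members. Both groups came from femur and tibia marrow of male C57BL/6 mice aged 7 weeks. The marrow had grown over 7 days in 20 ng/ml GM-CSF plus 10 ng/ml IL-4, and the suspension cells were then selected by CD11c. The 3 FSS libraries were from imDCs loaded with 10 dyn/cm2 for 3 h in a cone-plate device, in which a turning cone drags the medium over the cells. The 3 static libraries were from imDCs with no load. The labels number the libraries 1 to 3 in each group and do not say whether marrow was pooled or whether the replicates were separate cultures, so the spread between them may be technical.

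The integrated stress response joins several kinases, each sensing a different stress, at the phosphorylation of the translation factor eIF2. Phosphorylated eIF2 lowers protein synthesis in general while the messenger RNA of the transcription factor ATF4 is translated more. ATF4 then switches on genes for amino acid supply, for other transcription factors such as CHOP (encoded by Ddit3) and ATF3, and for feedback inhibitors of the pathway. RNA levels do not measure eIF2 phosphorylation or the ATF4 protein. In dendritic cells the pathway is known for its ties to cytokine production and antigen presentation.

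Sequences upstream of the members show where the letters bound by this family of factors occur. RefSeq promoter windows (GRCm38.p6, 250 bases before to 50 after a transcription start) were found for all 10 genes, 11 windows in all because Gdf15 has 2 starts. The ATF4 composite element, searched as TGATGNAA on both strands, was in 4 of the 11 windows (Atf3, Trib3, Chac1 and Nupr1) and in 3.97% of the 32851 mouse windows of this length. The cAMP response element TGACGTCA, the site of ATF and CREB factors, was in 1 of the 11 (Ppp1r15a) and in 1.79% of all. The letters GAANNTTC, a pair of heat shock units and the only arrangement of them searched, were in 0 of the 11 and in 7.86% of all. These letters were chosen after the windows had been seen, and a match describes the sequence only. The stretches that hold a match before the start are given in the direction of the gene, with the matched letters in capitals (the TTGCATCA matches are on the strand opposite to the gene).
Nupr1, chr7:126625528-126625625, minus strand: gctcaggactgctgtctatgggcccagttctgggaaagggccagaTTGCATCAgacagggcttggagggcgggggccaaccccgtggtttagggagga
Chac1, chr2:119351004-119351101, plus strand: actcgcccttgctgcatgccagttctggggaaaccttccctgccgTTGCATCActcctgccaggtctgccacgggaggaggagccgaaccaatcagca
Atf3, chr1:191183391-191183488, minus strand: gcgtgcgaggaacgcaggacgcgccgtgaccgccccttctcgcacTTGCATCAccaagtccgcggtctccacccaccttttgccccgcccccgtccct
Ppp1r15a, chr7:45526269-45526325, minus strand: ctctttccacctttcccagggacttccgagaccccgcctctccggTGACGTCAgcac
In Trib3 the match, TTACATCA at chr2:152344039-152344046 on the minus strand of the chromosome, lay after the start. Nupr1, Chac1 and Atf3 therefore carry the same 8 letters upstream, and their RNA did not move alike under FSS: the first 2 were higher and Atf3 was lower.

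Levels are in FPKM, in which the fragments of a gene are corrected for how long its transcripts are and for the size of the library, so that different genes can be set side by side. The unit is inferred and the depth behind a value is unknown, so no counting error is given. In the markers of the labelled cell type, 11 of 12 dendritic cell genes reached 1 FPKM in some library, with sums of 8810 to 9600 FPKM in static and 7710 to 9440 FPKM in FSS libraries; Flt3, the receptor of a dendritic cell growth factor, was below 1 FPKM in every library. All 12 neutrophil markers reached 1 FPKM in some library and their sum ran from 365 to 573 FPKM in static and from 339 to 484 FPKM in FSS libraries. For macrophages and monocytes, 11 of 13 markers reached 1 FPKM, the sums were 718 to 843 and 741 to 887 FPKM, and Vsig4 was listed at 0 throughout. Lymphocyte markers summed to 1.27 to 4.03 and 1.74 to 2.66 FPKM, those of mast cells and basophils to 6.41 to 14.6 and 7.57 to 16.4, erythroid ones to 1.54 to 3.05 and 0.89 to 2.66, and stromal ones to 11 to 17.1 and 7.3 to 12.2. These sums overlapped between the groups in each of the 7 lists. Within every replicate number, however, the neutrophil, erythroid, stromal and dendritic sums were lower under FSS and those of mast cells and of macrophages higher. Their part in the results below was not tested. Markers of a list did not all move alike. Of the neutrophil list, S100a8, Cxcr2 and Mpo were lower under FSS within every number and S100a9, Ngp and Mmp8 higher. Only 1 stromal marker (Pecam1, 10.78 to 16.75 FPKM in static libraries) and 1 erythroid marker (Hbb-bt) reached 1 FPKM in any library. Single markers moved within these sums. Irf4, a factor of dendritic cells, fell from 388 ± 55.0 to 106 ± 17.6 FPKM with no overlap (limma adjusted p = 0.0133, called in 3 of the 6 leave-one-out fits) and was the only marker called. With the replicate number in the model, 6 of the 11 tested dendritic markers fell and none rose, and of the 11 tested macrophage and monocyte markers 2 rose and 2 fell, while 7.73% of all genes rose and 25.1% fell. Mertk, a macrophage receptor for dying cells, stood at 18.0 ± 4.93 and 43.0 ± 18.6 FPKM without overlap (limma adjusted p = 0.164, and 0.00166 with the number in the model). Irf4 and Mertk were picked out after their values were seen. In these bulk libraries a change in the number of cells that express a gene and a change in RNA per cell cannot be told apart.

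The transcription factors of the pathway did not all move the same way. Atf4 (NCBI gene 11911), the factor at its centre, stood at 75.0, 81.85 and 104.65 FPKM in static replicates 1, 2 and 3 and at 175.38, 154.79 and 167.14 FPKM in the FSS replicates. Every FSS library was above every static library. The mean went from 87.2 ± 15.5 to 166 ± 10.4 FPKM (SD, n = 3 per group), a ratio of 1.9, and the difference on the log2(FPKM + 1) scale was 0.93 ± 0.18 (SE). The static libraries differed more among themselves than the FSS ones, the highest being 1.4 times the lowest against 1.13 times under FSS.

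Ddit3 (gene 13198) encodes CHOP, which ATF4 induces and which is tied to cell death under lasting stress. It stood at 17.92, 19.55 and 21.43 FPKM in the static libraries and at 40.85, 45.01 and 40.68 FPKM under FSS. It varied least among replicates of all the members, with the highest library 1.2 times the lowest in static cells and 1.11 times under FSS. The ratio of means was 2.15 and the log2 difference 1.07 ± 0.16 (SE).

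Atf3 (gene 11910), a repressor and activator of stress and inflammatory genes, was the 1 member that was lower under FSS. It stood at 272.57, 222.86 and 341.42 FPKM in static replicates 1 to 3 and at 160.81, 209.82 and 260.27 FPKM under FSS. The groups overlapped, since FSS replicate 3 was above static replicate 2, yet within each replicate number the FSS library was the lower. The ratio of FSS to static was 0.59 in pair 1, 0.941 in pair 2 and 0.762 in pair 3. The log2 difference of -0.41 ± 0.24 (SE) was -0.25 after libraries were scaled by their median ratio.

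**Figure D1:**
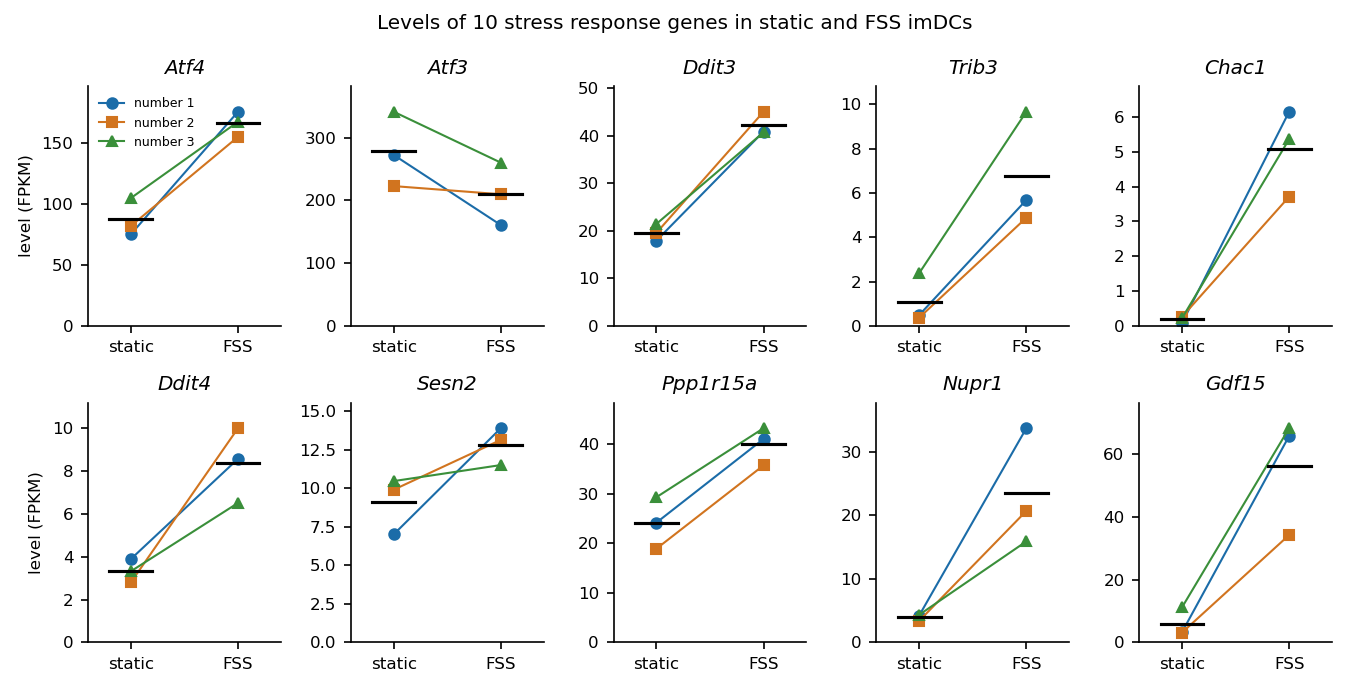
Level in FPKM (vertical axes, each from 0) of each of the 10 genes in static and FSS libraries, with lines joining libraries of the same replicate number and black bars at the group means. In 9 panels all FSS points lie above all static points; in the Atf3 panel every line slopes down and the groups overlap.

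Trib3 and Ppp1r15a encode feedback inhibitors of the response, and in both every FSS library was above every static library. Trib3 (gene 228775), a pseudokinase that binds ATF4 and CHOP and dampens them, stood at 0.49, 0.37 and 2.38 FPKM in static cells and at 5.68, 4.88 and 9.66 FPKM under FSS. In both groups replicate 3 was the highest. The ratio of FSS to static was 11.6 and 13.2 in pairs 1 and 2 and 4.06 in pair 3, where the static library already held more Trib3 RNA. In pairs 1 and 2 the static values were below 1 FPKM, which leaves those ratios uncertain. Ppp1r15a (gene 17872), which encodes GADD34, the subunit that directs a phosphatase to eIF2 and so ends the response, stood at 24.16, 18.9 and 29.29 FPKM and at 41.05, 35.72 and 43.21 FPKM. The ratio of its means was 1.66, with the same order of replicates (number 3 highest, number 2 lowest) in both groups. Its constitutive relative Ppp1r15b, which serves the same phosphatase without induction, gave means of 42.0 and 42.5 FPKM (log2 difference 0.02 ± 0.16, SE; limma adjusted p = 0.97). Its sign turned without static replicate 1, without FSS replicate 1 and without FSS replicate 2.

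Chac1, Ddit4 and Sesn2 act on metabolism, and of all members Chac1 had the largest ratio. Chac1 (gene 69065), an enzyme that breaks down glutathione, was near the bottom of the scale in static cells, at 0.08, 0.26 and 0.22 FPKM, and at 6.15, 3.71 and 5.36 FPKM under FSS. The ratio of its means was 27.2, ranging from 14.3 in pair 2 to 76.9 in pair 1. All 3 static values were below 1 FPKM, where a ratio is least certain. Ddit4 (gene 74747), also called REDD1, an inhibitor of the growth regulator mTORC1, stood at 3.89, 2.8 and 3.32 FPKM and at 8.57, 10.0 and 6.51 FPKM, a ratio of 2.51. Sesn2 (gene 230784), a sestrin that senses leucine and restrains mTORC1, stood at 7.0, 9.9 and 10.46 FPKM and at 13.89, 13.13 and 11.5 FPKM. The groups of Sesn2 did not overlap, but by little: FSS replicate 3 exceeded static replicate 3 by a ratio of 1.1, against 1.98 in pair 1.

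The other 2 members, Nupr1 and Gdf15, were the sixth and the third in level under FSS and the seventh and the sixth in static cells. Nupr1 (gene 56312), a small chromatin protein induced by many stresses, stood at 4.24, 3.4 and 4.35 FPKM and at 33.75, 20.72 and 15.92 FPKM. Its static libraries lay close together and its FSS libraries were spread, the highest 2.12 times the lowest, with number 1 on top. Gdf15 (gene 23886), a secreted protein of the TGF-beta superfamily that acts on the brainstem to lower food intake, stood at 3.24, 3.11 and 11.16 FPKM in static replicates and at 65.8, 34.24 and 68.28 FPKM in FSS replicates. Static replicate 3 was far above the other 2 static libraries, and all FSS libraries were above it. The log2 difference was 3.20 ± 0.46 (SE) for Gdf15, the largest of the members on that scale, and 2.23 ± 0.27 for Nupr1.

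By pair, 9 of the 10 members were higher under FSS in all 3 pairs, against 17.1% of the 10899 genes tested, and 1 (Atf3) was lower in all 3, against 47.3%. The same 9 had groups that did not overlap, which held for 5.10% of genes in that direction. As the members were chosen on this contrast, nothing is read from these shares. The median member differed by 1.18, 1.34 and 0.84 log2 in pairs 1, 2 and 3, while the median of all genes tested was -0.08, -0.07 and -0.22. Of the 9 members that were higher, 8 had their smallest ratio in pair 3, the exception being Chac1. Of all genes tested, 63.3% had their lowest difference in pair 3, and of the 1864 genes higher in every pair 65.0% did. Pair 3 thus gave the lowest values both for the members and for most other genes. These pair values are unscaled. The median-ratio scaling factor was 0.8446 for FSS replicate 3 and 0.9597 to 1.109 for the other libraries. Its part in the low values of pair 3 was not tested.

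**Figure D2:**
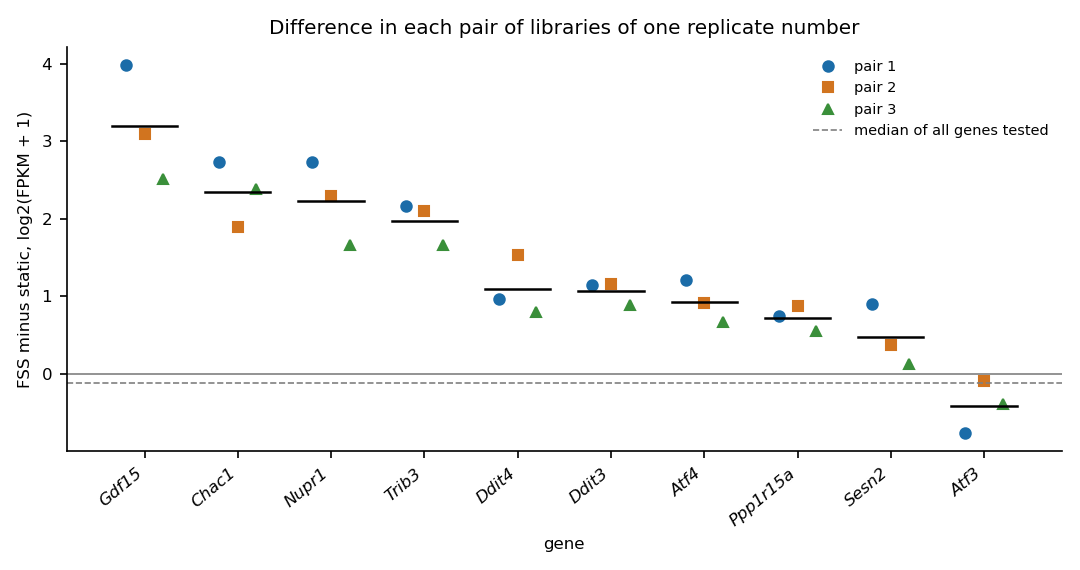
FSS minus static on the log2(FPKM + 1) scale (vertical axis) for each gene (horizontal axis), as 3 points for pairs 1 to 3 and a black bar for the mean difference; the dashed line is the median of all genes tested, -0.12. Gdf15 spreads from 2.51 to 3.98, while Ddit3 stays between 0.89 and 1.16 and Atf3 lies below 0 in all pairs.

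In the fit across all genes (limma on log2(FPKM + 1), Benjamini-Hochberg adjustment, threshold 0.05) 6 of the 10 members were called higher and none lower. The 6 were Ddit3, Ddit4, Trib3, Chac1, Nupr1 and Gdf15. The same rule called 0.853% of all genes higher and 0.862% lower. Chac1 entered the fit only through its FSS libraries, since a gene had to reach 1 FPKM in 3 libraries. With the replicate number as a block in the model (blocked), 9 members were called higher, as were 7.73% of all genes, and Atf3 was called lower, as were 25.1%. When the blocked fit used libraries scaled by median ratio (blocked and scaled), Atf3 was not called and the other 9 were higher; that fit called 19.2% of all genes higher and 16.8% lower. Without the block the count of 6 fell to 0 without static replicate 1, without FSS replicate 1 or without FSS replicate 2, and to 1 without static replicate 2. It was 4 without static replicate 3 and 6 without FSS replicate 3, where Atf4 was called in place of Chac1. Chac1 missed the filter in each fit without an FSS library, so it was not tested there.

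The order of the members by level changed between the groups. In static cells Atf3 was highest at 279 ± 59.5 FPKM, ahead of Atf4, and then came Ppp1r15a (24.1 ± 5.2) and Ddit3 (19.6 ± 1.76), whose ranges overlapped. Sesn2, Gdf15, Nupr1 and Ddit4 followed between 9.12 and 3.34 FPKM, each overlapping its neighbour, and Trib3 and Chac1 were lowest. Under FSS Atf3 (210 ± 49.7) overlapped with Atf4 (166 ± 10.4), and Gdf15 at 56.1 ± 19.0 FPKM had moved from the sixth place to the third. Gdf15, Ddit3 (42.2 ± 2.45) and Ppp1r15a (40 ± 3.86) then overlapped in turn, as did Ddit4, Trib3 and Chac1 at 8.36 to 5.07 FPKM.

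Whether the members differed between the replicate numbers is a question that their choice did not use. A limma F-test of the number, with the group in the model, called 4 of the 10: Trib3 (adjusted p = 0.00332), Gdf15 (0.0223), Atf3 (0.0401) and Ppp1r15a (0.049). The test called 49.7% of all genes, so 4 of 10 is not above the background. For each of these 4, number 3 was the highest library in both groups, which held for no other member. Number 3 exceeded the mean of numbers 1 and 2 by 1.54 (static) and 0.51 (FSS) log2 for Gdf15, by 1.24 and 0.77 for Trib3, by 0.47 and 0.50 for Atf3 and by 0.44 and 0.17 for Ppp1r15a. Over all genes the same medians were -0.04 and -0.21. In static cells 8 of the 10 members were highest in number 3 (38.6% of all genes were), while under FSS 4 of the 10 were (28.5% of all genes), and for Nupr1 the difference of FSS replicate 3 from the mean of the other 2 was -0.70 log2. The marker sums of neutrophils, mast cells, erythroid and stromal cells were also highest in number 3 of both groups. In static and FSS libraries they were 573 and 484 FPKM for neutrophils and 14.6 and 16.4 FPKM for mast cells. Only 1 stromal and 1 erythroid marker reached 1 FPKM in any library, Pecam1 and Hbb-bt. The part of these sums was not tested. What the number stands for is not given in the labels.

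**Figure D3:**
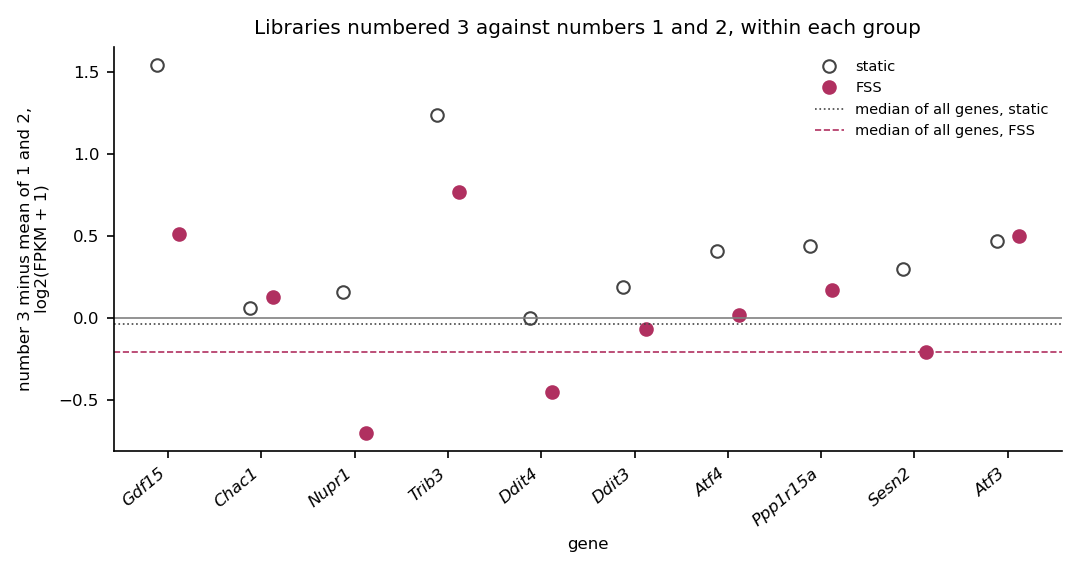
Replicate number 3 minus the mean of numbers 1 and 2 on the log2(FPKM + 1) scale (vertical axis) for each gene (horizontal axis), open circles for static and filled circles for FSS libraries, with lines at the medians of all genes tested, -0.04 and -0.21. Gdf15 and Trib3 stand highest in static cells at 1.54 and 1.24, and Nupr1 lowest under FSS at -0.70.

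RNAs of the machinery upstream of ATF4 did not pass the test. The gene lists used from here on were chosen, like the members, with earlier results of these data known. Their counts and p-values are therefore given as descriptions. The 17 tested genes were those of the eIF2 kinases, eIF2 and its exchange factor eIF2B, with Gcn1, Impact, Eif2a, Dele1 and Oma1. None passed, against 1.72% of all genes, and the list median was -0.17 log2 against -0.12 for all genes. At an unadjusted limma p under 0.05, 4 fell and none rose (1504 and 465 of all genes). Blocked, 6 of 17 fell and none rose, against 25.1% and 7.73% of all genes. Blocked and scaled, 4 rose and 5 fell, against 19.2% and 16.8%. Eif2ak3, the kinase PERK of the endoplasmic reticulum, gave 7.92 ± 0.922 and 7.09 ± 0.999 FPKM (limma adjusted p = 0.739). Eif2ak4, the amino acid sensor GCN2, gave 7.15 ± 0.941 and 8.09 ± 1.95 FPKM (limma adjusted p = 0.802; 0.0295 blocked and scaled). Eif2b3, a subunit of eIF2B, stood at 6.26 ± 0.522 and 3.69 ± 0.0961 FPKM and fell when blocked (limma adjusted p = 0.0783, and 0.00357 blocked). Oma1, the mitochondrial protease that relays mitochondrial stress to this pathway, stood at 7.21 ± 1.54 and 4.38 ± 0.997 FPKM and fell likewise when blocked (limma adjusted p = 0.185, and 0.00409 blocked).

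Paralogs of the members gave 1 call. Of 9 tested paralogs, 1 rose and none fell, against 0.853% and 0.862% of all genes. In the blocked fit 3 rose and 1 fell, against 7.73% and 25.1%. Jdp2, a repressor of the same leucine zipper family as ATF3, rose from 4.5, 5.07 and 6.53 to 12.77, 14.2 and 12.52 FPKM (log2 difference 1.16 ± 0.17, SE; limma adjusted p = 0.0287, called in 2 of the 6 leave-one-out fits). It thus stood against Atf3, which was lower in every pair. Trib1, a relative of Trib3 that steers degradation of C/EBP factors, stood at 11.23, 14.2 and 12.94 and at 5.75, 8.23 and 5.4 FPKM, opposite in direction to Trib3, and fell when blocked (limma adjusted p = 0.0667, and 0.00188 blocked). The other rises when blocked were Atf5, a factor translated in the same way as ATF4, and Gdf11, a relative of Gdf15, both named after their values were seen (limma, blocked: adjusted p = 0.00747 and 0.0106). Atf5 stood at 33.0 ± 17.0 and 50.7 ± 13.7 FPKM and, like Gdf15 and Trib3, was highest in number 3 of both groups. Gdf11 was near the filter, at 0.55, 1.26 and 0.32 FPKM in static and 1.35, 1.94 and 0.84 FPKM in FSS libraries. The groups overlapped for both genes (limma, unblocked: adjusted p = 0.365 for Atf5 and 0.372 for Gdf11).

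Of 22 tested leucine zipper partners of ATF4 and CHOP none passed in limma, against 1.72% of all genes called. At an unadjusted p under 0.05, 4 were higher and 2 lower, against 465 and 1504 of all 10899 genes. Blocked, 5 rose and 6 fell, against 7.73% and 25.1% of all genes, and when also scaled 9 and 2, against 19.2% and 16.8%. Cebpb, a frequent partner of both factors, gave 89.1 ± 18.1 and 105 ± 16.8 FPKM (limma adjusted p = 0.621; 0.0286 blocked and scaled). Batf, a leucine zipper factor of lymphoid and dendritic cells, stood at 19.6 ± 3.19 and 37.3 ± 9.42 FPKM and rose when blocked (limma adjusted p = 0.11, and 0.00551 blocked). Fosl2, of the AP-1 family, stood at 70.4 ± 13.1 and 38.3 ± 6.25 FPKM and fell when blocked (limma adjusted p = 0.086, and 0.00195 blocked).

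ATF4 targets of amino acid supply had the highest median of the 7 lists, which were chosen with earlier results of these data known. Of 30 tested, 2 rose and none fell, against 0.853% and 0.862% of all genes, with a list median of 0.26 log2 (-0.12 over all genes); 8 of the 38 genes of the list were too low to test. In the blocked fit 11 rose and 2 fell (7.73% and 25.1% of all genes). Blocked and scaled, 20 rose and 2 fell (19.2% and 16.8% of all genes). The list medians by pair were 0.49, 0.29 and -0.03. Mthfd2, a mitochondrial enzyme of folate metabolism, rose from 23.58, 22.5 and 24.44 to 54.22, 47.24 and 39.37 FPKM (limma adjusted p = 0.0447). Slc1a4, a transporter of serine and alanine, rose from 1.45, 1.6 and 1.39 to 4.5, 3.85 and 3.04 FPKM (limma adjusted p = 0.0423). Each of these 2 calls was kept in 1 of the 6 leave-one-out fits.

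Asns, which makes asparagine and is a standard readout of ATF4, stood at 5.37, 6.41 and 20.68 FPKM in static replicates and at 27.55, 19.29 and 25.96 FPKM under FSS. Static replicate 3 was high, as for Gdf15 and Trib3, and lay above FSS replicate 2, so the groups overlapped. Asns rose when blocked (limma adjusted p = 0.17, and 0.0132 blocked). Unblocked, it was called in 1 of the 6 leave-one-out fits, the one without static replicate 3, where its log2 difference was 1.86 against 1.31 with all libraries. The 2 genes that fell when blocked, named after their values were seen, encode amino acid transporters, of leucine (Slc7a5) and of glutamine (Slc1a5). Slc7a5 stood at 24.8 and 11.8 FPKM and Slc1a5 at 41.2 and 23.2 FPKM (limma, blocked: adjusted p = 0.00104 and 0.00205; unblocked, 0.179 and 0.0716).

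**Figure D4:**
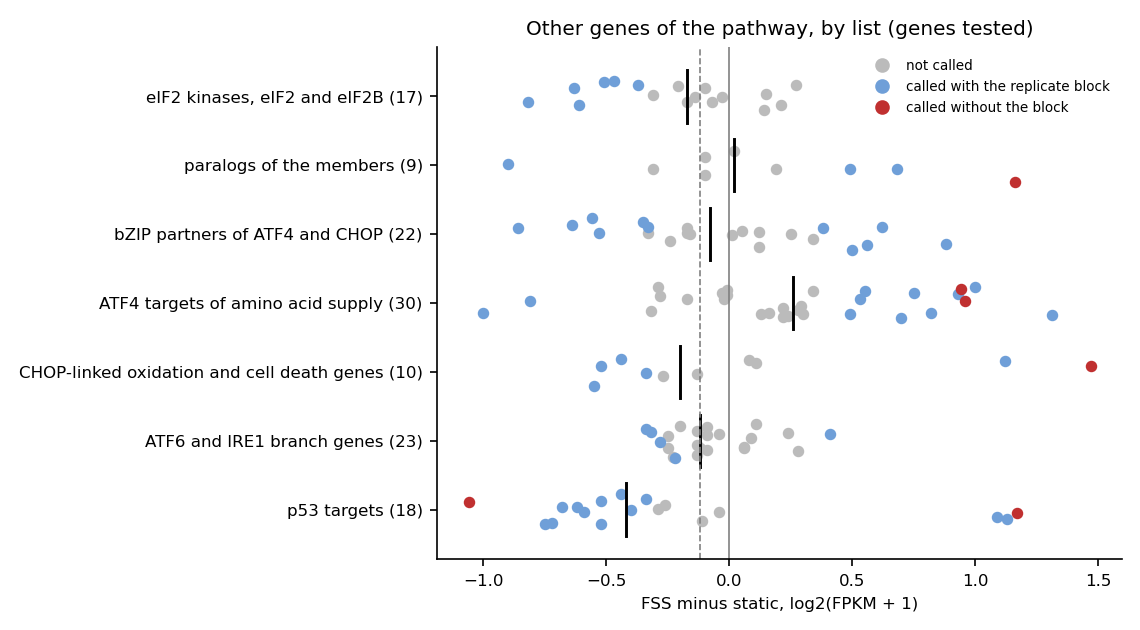
FSS minus static on the log2(FPKM + 1) scale (horizontal axis) for the tested genes of 7 lists (rows, number tested in brackets), red where called without the replicate block, blue where called with it alone, grey otherwise; black bars are list medians and the dashed line is the median of all genes tested. The list of amino acid supply has the highest median, 0.26, and the p53 targets the lowest, -0.42.

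In the list of CHOP-linked oxidation and cell death genes, 1 of 10 tested genes rose and none fell, against 0.853% and 0.862% of all genes. The list holds cell death genes at large and not only targets of CHOP. Ero1l, an oxidase that forms disulfide bonds in the endoplasmic reticulum, rose from 41.99, 28.78 and 36.06 to 112.13, 124.81 and 69.34 FPKM (limma adjusted p = 0.0423, called in 1 of the 6 leave-one-out fits). Blocked, 2 rose and 4 fell, against 7.73% and 25.1% of all genes, and when also scaled 3 and 3, against 19.2% and 16.8%. The second rise was in Bcl2l11, the death gene BIM, taken up after its values were seen, at 26.5 ± 4.17 and 60.7 ± 20.2 FPKM (limma adjusted p = 0.0939, and 0.00201 blocked).

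The other arms of the unfolded protein response, ATF6 and IRE1, gave no call. None of 23 tested genes passed in limma, against 1.72% of all genes. At an unadjusted p under 0.05, 0 did, against 465 higher and 1504 lower among all 10899 genes. The list median was -0.12 log2 and equal to that of all genes, and blocked 1 rose and 4 fell, against 7.73% and 25.1% of all genes (4 and 0 when also scaled, against 19.2% and 16.8%). Hspa5, the chaperone BiP that is the standard readout of unfolded protein in the endoplasmic reticulum, gave 441.53, 414.9 and 408.78 FPKM in static and 486.28, 386.86 and 363.96 FPKM in FSS libraries (limma adjusted p = 0.933). Its log2 difference of -0.04 turned to 0.12 with median-ratio scaling. Xbp1, the target of IRE1, gave 88.4 ± 2.9 and 74.5 ± 4.23 FPKM, with its splice forms not separated (limma adjusted p = 0.451). Herpud1, a degradation factor of the endoplasmic reticulum that ATF4 also induces, was the gene that rose when blocked, at 46.4 ± 7.43 and 61.5 ± 3.96 FPKM (limma adjusted p = 0.281, and 0.0212 blocked). The sensor gene Atf6 stood at 9.48 ± 0.796 and 7.41 ± 0.191 FPKM and fell when blocked (limma adjusted p = 0.309, then 0.0411 blocked, and 0.134 blocked and scaled).

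The p53 pathway also induces Gdf15 and Sesn2, and its targets were set beside the members. Of 18 tested, 1 rose and 1 fell, against 0.853% and 0.862% of all genes. Blocked, 3 rose and 11 fell, against 7.73% and 25.1%. When also scaled, 3 rose and 8 fell, against 19.2% and 16.8%. The list median was -0.42 log2, and -0.28 with median-ratio scaling, against -0.12 and 0.02 for all genes. Cdkn1a, the cell cycle inhibitor p21 and the best known target, stood at 397.15, 352.27 and 556.87 FPKM in static and at 187.73, 257.6 and 339.7 FPKM in FSS libraries, with no overlap, and fell when blocked (limma adjusted p = 0.193, and 0.00357 blocked). Aen, an apoptosis nuclease, fell from 18.0 ± 2.11 to 8.12 ± 0.98 FPKM (limma adjusted p = 0.0358), and Gadd45a, a growth arrest gene that other stresses induce too, rose from 7.1 ± 1.2 to 17.3 ± 4.29 FPKM (0.0447). Each of the latter 2 was called in 1 of the 6 leave-one-out fits. The other rises when blocked, named after their values were seen, were Mdm2, the ligase that degrades p53, and Fas, a death receptor. Mdm2 stood at 52.4 ± 5.88 and 121 ± 49.4 FPKM without overlap (limma adjusted p = 0.0939, and 0.00232 blocked). Fas stood at 19.6 ± 6.22 and 44.8 ± 20.2 FPKM and was higher in all 3 pairs (limma adjusted p = 0.185, and 0.00112 blocked).

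Hspa1b, an inducible HSP70 gene of the heat shock response, differed more than any member. It rose from 8.39, 21.99 and 6.75 to 1240.43, 624.86 and 1054.89 FPKM (log2 difference 6.30 ± 0.43, SE; limma adjusted p = 0.00402, called in 6 of the 6 leave-one-out fits). Its smallest ratio was in pair 2 (28.4), whereas that of 8 members was in pair 3. Reads of Hspa1b and its near copy Hspa1a cannot be divided with certainty.

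The genes most like Atf4 and Gdf15 over the 6 libraries were sought by Pearson correlation of log2(FPKM + 1), among all genes tested, other members and predicted genes left out. With Atf4 they were Lpxn (r = 0.995), Csrnp1 (0.995), 1700064H15Rik (0.993), Rilpl2 (0.993) and C77080 (0.993). With Gdf15 they were Rcbtb2 (0.996), Csrnp1 (0.994), C77080 (0.993), Tsc22d3 (0.993) and 1700064H15Rik (0.988). Csrnp1, C77080 and 1700064H15Rik were on both lists. The 6 points are 2 groups of 3, so any gene that differs between the groups can score high, and these values only describe the libraries. Csrnp1 stood at 31.36, 31.4 and 37.04 and at 53.29, 49.61 and 53.62 FPKM, with static replicate 3 highest of the static libraries as for both genes it resembled.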

How the data were processed

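RNA of 6 libraries, 3 static and 3 FSS, was grouped by the submitters' titles. The authors deposited 1 expression table for 22899 genes; it and the per-sample files held identical values. The authors' unit is not stated in the headers, and the deposited values were taken as FPKM, since value times longest transcript length came to 1.14 to 1.28 times the sum that FPKM implies in each library (0.552 to 0.609 times with median lengths). HISAT and Bowtie2 are named in the submitters' processing notes. The quantifier, genome build and strand setting were not given in the sources used here. Summed FPKM ran from 413898 to 470596. Low values showed no steps of whole reads.

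Genes blank throughout (4828) were dropped and genes at 1 FPKM or more in 3 libraries were kept (10899). limma 3.58.1 in R 4.3.3, with trend, fitted log2(FPKM + 1), and two-sided p-values were adjusted by Benjamini-Hochberg across every gene kept, with 0.05 as threshold. The fit was tested on simulated data. Members and lists were chosen with earlier results of these data known. Named genes are all members, up to 4 called genes per pathway list (2 where none was called), 10 further genes fixed by name, and the 5 genes most like Atf4 and Gdf15. Outside this rule, Atf5, Gdf11, Slc7a5, Slc1a5, Bcl2l11, Mdm2, Fas, Irf4 and Mertk were named after their values were seen.

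Deviations from group means correlated between libraries of the same number (Pearson 0.79, 0.66 and 0.87 for numbers 1 to 3). Across different numbers the values were 0.22 and 0.28 between numbers 1 and 2, and -0.78 to -0.54 where number 3 was involved. Number 3 against the other numbers thus makes up much of this pattern. Libraries sharing a number were treated as pairs, which the labels do not state. Each fit was repeated with 0.1 as pseudocount, without the filter, at a threshold of 0.01, with median-ratio scaling, with the replicate block (scaled and unscaled), without each library in turn and, added after seeing the data, equal totals.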

Additional observations from a re-analysis of the deposited data

How the results depend on the processing

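Depth is unknown and 3 libraries a group limit every count. All 10 members kept the sign of their log2 difference under each alternative run that tested them. Chac1 missed the filter in every run without an FSS library. The counts moved as follows, first over all genes (93 higher and 94 lower), then for members called higher (6) and lower (0), then for calls in the 7 lists in the order upstream machinery (0), paralogs (1), leucine zipper partners (0), amino acid supply (2), CHOP-linked genes (1), ATF6 and IRE1 (0) and p53 targets (2). At a threshold of 0.01 there were 4 and 1 genes, 1 member, and 0 calls in each of the 4 lists that had any. With no filter there were 14 and 7 genes, 1 member, and again 0 calls in those 4 lists. Median-ratio scaling gave 158 higher genes, 1 leucine zipper partner and 2 CHOP-linked genes. Equal totals gave 45 lower genes, 0 calls in amino acid supply and CHOP-linked genes and 1 in p53 targets.

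With the replicate block, which takes the numbers as pairing, there were 842 higher and 2739 lower genes, 1 member lower, and 6, 4, 11, 13, 6, 5 and 14 list calls; with the block and the scaling there were 2092 and 1829 genes and 9, 5, 11, 22, 6, 4 and 11 list calls. Leaving out 1 library gave 3 to 254 higher and 0 to 161 lower genes, 0 to 6 members higher, 0 to 1 paralogs, 0 to 1 leucine zipper partners, 0 to 3 amino acid genes, 0 to 2 CHOP-linked genes and 0 to 4 p53 targets. The lists for upstream machinery and for ATF6 and IRE1 kept 0 calls. A fit without 1 library has 2 libraries in an arm and takes its spread from both groups.

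The replicate-number test called 5414 genes and 4 members. At a threshold of 0.01 it called 2573 and 1, and with no filter 3214 and 1. With median-ratio scaling it called 6 members and 6118 of the 10899 genes tested. Ppp1r15b turned from 0.02 to -0.05 without static replicate 1 and to -0.01 without FSS replicate 1 or FSS replicate 2 (-0.05 to 0.09 over the fits with a library left out). Hspa5 turned from -0.04 to 0.12 with median-ratio scaling (0.12 with the block too), to 0.02 with equal totals and to 0.04 without FSS replicate 3 (-0.17 to 0.04 over those fits). The causes were not tested. A pseudocount of 0.1 moved Chac1 from 2.34 to 4.2 and Trib3 from 1.97 to 2.89 log2, since it shrinks low values less.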
